A study of Mus musculus with 14 samples.

Results

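The interferon-stimulated effector genes are a list of 32 mouse genes whose products carry out the antiviral response to type I and type III interferons. The list was taken by gene symbol, and all 32 genes were found among the 55421 genes listed for the first set of libraries and among the 17490 listed for the second. Poly(A) RNA was sequenced from small-intestinal tumor organoids, named APT in the labels, that carried doxycycline-inducible short hairpin RNAs. The hairpins were directed at Suv4-20h2, the histone H4 lysine 20 methyltransferase listed under the symbol Kmt5c, or were controls (shCtrl). In set 1, control 1 and hairpin 1, which targets exon 4, had 3 libraries each. In set 2, control 2 and hairpin 2, which targets exon 9, had 4 libraries each. All 4 groups, the controls included, were kept in 0.5 µg/ml doxycycline for 4 days, and no group without doxycycline or without a hairpin was analysed here. The labels describe the hairpin groups as clone#1 and clone#2, so each hairpin was measured in a single clone. The labels do not say that replicates were separate cultures, so p-values cover the spread among libraries only, part of which may be technical.

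Interferons are secreted proteins that bind receptors on the same or neighbouring cells and activate the Janus kinases JAK1 and TYK2. These phosphorylate STAT proteins, and STAT2 joins IRF9 in the transcription factor ISGF3, which binds interferon-stimulated response elements in the promoters of the effector genes. Intestinal epithelial cells respond mainly to type III interferon. Interferon gamma acts through gamma-activated sequences, and favours guanylate-binding proteins and antigen presentation genes.

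The response element is visible in the promoters of many of these genes, and those shown here belong to genes that the results below describe. Promoter windows, from 250 bases before to 50 bases after the start, were taken from RefSeq (GRCm38.p6) and were found for 23 of the 32 genes. The core letters (GAAA, any 2 bases, then GAAA), searched on both strands, occurred in 11 of the 23 genes and in 3.99% of all 27025 genes in the table. The longer form with a final C, which contains the core, occurred in 9 of 23 against 0.944%. The gamma-activated letters TTCNNNGAA occurred in 4 of 23, namely Bst2, Eif2ak2, Ifit2 and Oas1a, against 9.55% of all genes. Each line gives the bases around the core matches on the strand of the gene, 5′ to 3′, with the matches in capitals (TTTC, any 2 bases, TTTC is the core read from the other strand).
Stat2 (chr10:128270256-128270305, plus strand): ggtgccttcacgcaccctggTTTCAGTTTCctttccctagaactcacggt
Isg15 (chr4:156200855-156200916, minus strand): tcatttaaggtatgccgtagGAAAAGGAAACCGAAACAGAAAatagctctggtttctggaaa
Ifit1 (chr19:34640765-34640833, plus strand): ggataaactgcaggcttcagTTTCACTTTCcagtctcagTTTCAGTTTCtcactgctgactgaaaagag
Ifit3 (chr19:34583353-34583436, plus strand): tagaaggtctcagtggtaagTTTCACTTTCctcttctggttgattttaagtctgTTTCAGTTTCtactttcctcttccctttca
Oas1a (chr5:120907510-120907565, minus strand): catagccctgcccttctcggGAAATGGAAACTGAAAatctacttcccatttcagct
Oas3 (chr5:120777705-120777754, minus strand): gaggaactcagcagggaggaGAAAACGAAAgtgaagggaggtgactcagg
Bst2 (chr8:71537567-71537622, minus strand): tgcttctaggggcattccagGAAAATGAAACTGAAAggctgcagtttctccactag
Apol9b (chr15:77729015-77729070, plus strand): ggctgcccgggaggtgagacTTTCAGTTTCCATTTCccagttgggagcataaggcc
The Isg15 promoter held 3 overlapping matches, and Ifit3b, which neighbours Ifit3, carried the same 84 bases as Ifit3. A match describes letters in a window and does not show that a factor binds there.

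Total counts per library ran from 9272134 to 26284079. Levels are given as CPM (counts scaled to a common library total with TMM factors), with no correction for gene length. Kmt5c, the targeted gene, was at 67.3 to 75.8 CPM in control 1 and 53.6 to 64.3 CPM in hairpin 1, and at 116 to 129 CPM in control 2 and 99.3 to 114 CPM in hairpin 2. Its log2 fold change was -0.31 in set 1 and -0.20 in set 2, and neither passed edgeR's quasi-likelihood test (adjusted p = 0.80 and 0.098). With libraries of set 2 blocked by replicate number, its adjusted p was 0.0074. All 10 epithelial markers examined stayed above 5 CPM in every library, though 4 of the 10 were called lower in set 2, the homeobox gene Cdx1 by 1.92 on the log2 scale. In set 1, 10 of 12 leukocyte markers stayed under 1 CPM in every library, with Siglech and Nkg7 among those at 0 and Cd68 at 5.51 to 53.9 CPM. In set 1, 8 of 11 fibroblast and endothelial markers stayed under 1 CPM, with Dcn and Lum at 0. Hairpin 1 replicate 1 stood apart: its stromal markers summed to 53.0 CPM against 3.19 to 11.2 CPM in the other set 1 libraries, of which Cdh5 made up 49.6 CPM. The counts of this library also differed from those of hairpin 1 replicates 2 and 3 by a chi-square per gene of 245 and 288. Between replicates 2 and 3 the value was 24, and between control 1 libraries 38.3 to 64.9. Set 1 results are therefore given with and without hairpin 1 replicate 1. In bulk RNA, fewer cells that express a gene cannot be told apart from less of its RNA per cell.

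In set 1, 31 of the 32 interferon-stimulated genes had lower fitted levels with hairpin 1 than in control 1, and none passed the test. The median log2 fold change of the 32 genes was -0.78, against 0.03 over all 13540 genes tested, of which 47.5% lay below 0. By edgeR's quasi-likelihood test no gene of the 32 was called lower or higher (adjusted p from 0.80 to 0.96), and none of the 13540 genes was, so the background of calls was 0% in each direction. At an unadjusted p under 0.05, 14 of 32 were lower and 0 were higher, against 2.97% and 2.44% of all genes. In 9 of 32 genes every hairpin library lay below every control library, against 6.34% of all genes. DESeq2 called 1 of the 32 lower, Apol9b, and over all 13540 genes it called 14 lower and 6 higher.

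Without hairpin 1 replicate 1, all 32 genes lay below 0, against 52.0% of all genes, with a median of -1.09. In that fit 23 reached an unadjusted p under 0.05, against 9.11% of all genes. Groups did not overlap for 15 of 32, against 17.6% of all genes, and again none of the 32 was called (smallest edgeR adjusted p = 0.066). The count of 14 at an unadjusted p under 0.05 also depended on other libraries: it was 4 without control 1 replicate 2, 6 without control 1 replicate 1 and 5 without hairpin 1 replicate 3. Without control 1 replicate 2, 25 of 32 lay below 0 and the median was -0.57. For 24 of the 32 genes some single library, when left out, moved the log2 fold change by over 1.5 times. The other 8 were Apol9b, Bst2, Eif2ak2, Ifi44, Lgals3bp, Oas1a, Stat2 and Xaf1. Of these, Stat2 came close to that limit without control 1 replicate 2 (from -1.05 to -0.71). Eif2ak2 did so without hairpin 1 replicate 3 (from -0.64 to -0.43).

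**Figure D1:**
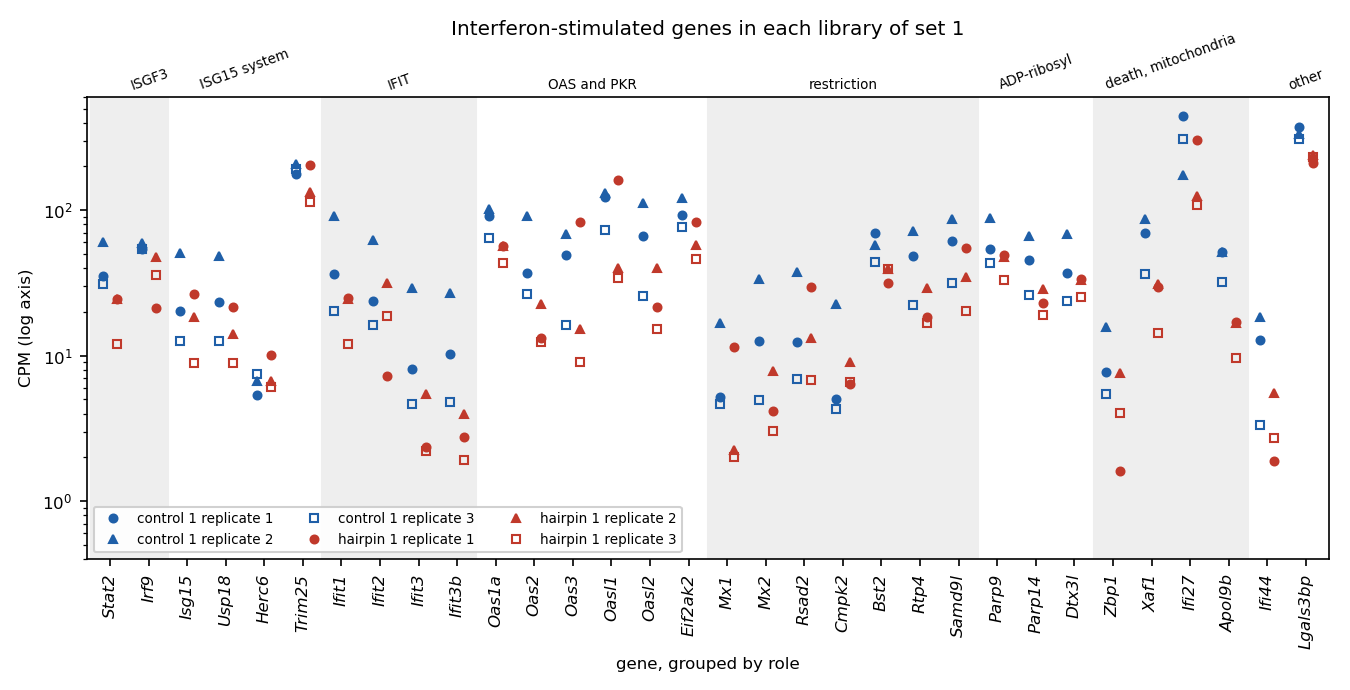
CPM (log axis) of the 32 genes in each of the 6 libraries of set 1, grouped by role, with control 1 in blue and hairpin 1 in red. Control 1 replicate 2 is the highest control library for 28 genes and replicate 3 the lowest for 29, and hairpin 1 replicate 1 lies above every control library for Herc6, Oas3 and Oasl1.

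Both subunits of ISGF3 on the list were lower in every hairpin 1 library than in every control 1 library. Stat2, on chromosome 10, measured 35.6, 60.4 and 30.98 CPM in control 1 replicates 1 to 3 and 24.6, 24.4 and 12.1 CPM in the hairpin 1 replicates. Irf9, on chromosome 14, measured 54.5, 59.1 and 54.05 CPM against 21.3, 47.7 and 35.9 CPM. Irf9 varied little among the controls, and Stat2 had 1 control library well above the others. The log2 fold changes were -1.05 ± 0.38 (SE) for Stat2 and -0.68 ± 0.30 for Irf9, and -1.22 and -0.42 without hairpin 1 replicate 1, which was the lowest library for Irf9. Without control 1 replicate 2 they were -0.71 for Stat2 and -0.64 for Irf9.

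The ISG15 system attaches a ubiquitin-like protein to other proteins. Isg15, the modifier itself, measured 20.4, 50.5 and 12.6 CPM in control 1 and 26.8, 18.5 and 8.96 CPM in hairpin 1. Usp18, which removes ISG15 and also restrains the interferon receptor, measured 23.4, 48.8 and 12.6 CPM against 21.6, 14.2 and 8.85 CPM. The groups overlapped for both, with control replicate 2 far above the rest. Isg15 had a log2 fold change of -0.62 ± 0.59, which was 0.13 without control 1 replicate 2 and -1.02 without hairpin 1 replicate 1. Usp18 had -0.92 ± 0.54, and -0.27 without that control library. Trim25, a ubiquitin and ISG15 ligase, measured 178, 208 and 192 CPM against 205, 134 and 113 CPM, so that of the hairpin libraries replicate 1 alone reached the control range. Herc6, an ISG15 ligase of the mouse, was the 1 gene of the 32 above 0. It measured 5.35, 6.73 and 7.44 CPM against 10.1, 6.74 and 6.10 CPM, a log2 fold change of 0.23 ± 0.35 that was -0.022 without hairpin replicate 1.

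The IFIT proteins bind viral RNA, and Ifit2, Ifit3, Ifit3b and Ifit1 lie together on chromosome 19 (GRCm38, 34550694 to 34650009). They had the lowest median log2 fold change of the 8 roles, -1.67 with all libraries and -1.65 without hairpin 1 replicate 1. That rank depended on control 1 replicate 2. Without it the IFIT genes ran from -1.39 to -0.06, and the cell death and mitochondrial factors from -1.53 to -0.57. Ifit3 measured 8.09, 29.2 and 4.63 CPM in control 1 and 2.37, 5.45 and 2.23 CPM in hairpin 1, with a log2 fold change of -2.06 ± 0.75. Ifit3b measured 10.3, 26.9 and 4.80 CPM against 2.76, 3.99 and 1.91 CPM, with -2.28 ± 0.66 and no overlap. Both values rest in large part on control replicate 2: without it they were -0.93 and -1.39. Ifit3 and Ifit3b are near copies, with 51.2% and 45.0% of their 50-base windows found in other genes, so how reads were split between them is uncertain. Ifit1 and Ifit2, at -1.27 ± 0.57 and -0.83 ± 0.65, overlapped between the groups, and were -0.47 and -0.06 without control replicate 2. Ifit2 was -0.44 without hairpin replicate 1 and -1.39 without hairpin replicate 2.

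The genes that act on double-stranded RNA differed among the hairpin libraries. OAS enzymes make the messenger that activates RNase L, and Oas2, Oas3 and Oas1a lie at 120730333 to 120907521 on chromosome 5. Oas2 measured 36.8, 91.6 and 26.3 CPM in control 1 and 13.3, 22.8 and 12.5 CPM in hairpin 1, without overlap, and had a log2 fold change of -1.67 ± 0.51, which was -0.96 without control replicate 2. Its neighbour Oas3 measured 48.9, 69.1 and 16.3 CPM against 83.2, 15.3 and 9.06 CPM. Oasl1, an OAS-like protein without enzyme activity that restrains Irf7 translation, measured 124, 132 and 73.1 CPM against 162, 39.99 and 34.1 CPM. Hairpin replicate 1 was above every control library for Oas3 and Oasl1, and the other hairpin libraries were below every control. Without it the log2 fold changes moved from -0.32 to -1.88 for Oas3 and from -0.48 to -1.57 for Oasl1. Leaving out hairpin replicate 2 or 3 in its place gave 0.043 and 0.19 for Oas3 and -0.17 and -0.076 for Oasl1, and without control replicate 2 Oas3 was at 0.14. The direction of Oas3 thus turned with any 1 of these 3 libraries left out. Oasl2, an OAS-like protein with enzyme activity, measured 66.2, 113 and 25.6 CPM against 21.8, 39.9 and 15.2 CPM (log2 fold change -1.41 ± 0.57, and -0.84 without control replicate 2). Oas1a had -0.71 ± 0.24 without overlap, and 57.6% of its windows are also found in Oas1g, so its reads may include that copy. Eif2ak2, the kinase PKR that stops translation on double-stranded RNA, had -0.64 ± 0.28.

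The virus restriction factors ranged from -1.77 to -0.20. Mx2, a dynamin-like GTPase, measured 12.6, 33.6 and 4.98 CPM in control 1 and 4.17, 7.81 and 3.02 CPM in hairpin 1, a log2 fold change of -1.77 ± 0.71 that was -0.81 without control 1 replicate 2. Its neighbour Mx1 measured 5.24, 16.8 and 4.68 CPM against 11.4, 2.25 and 2.01 CPM, and moved from -0.77 to -2.06 without hairpin replicate 1 and to 0.078 without control replicate 2. Rsad2 (viperin), which makes a chain-terminating nucleotide from CTP, measured 12.5, 37.8 and 6.91 CPM against 29.7, 13.3 and 6.84 CPM, and its log2 fold change was 0.77 without control replicate 2 and 0.21 without hairpin replicate 3. For Mx1 and Rsad2 hairpin replicate 1 was the highest of the hairpin libraries, and below control replicate 2. Bst2 (tetherin), which holds budding virus at the membrane, measured 70.1, 57.4 and 44.03 CPM against 31.7, 39.7 and 39.8 CPM, without overlap and with a log2 fold change of -0.63 ± 0.24. Rtp4 measured 48.2, 71.7 and 22.3 CPM against 18.4, 28.98 and 16.8 CPM, with -1.15 ± 0.44, and -0.72 without control replicate 2. Samd9l and Cmpk2 had -0.71 and -0.54, both with overlap, and -0.35 and 0.66 without control replicate 2.

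Parp9 and Parp14, members of the ADP-ribosyltransferase family, and Dtx3l, the ubiquitin ligase that partners Parp9, lie at 35832874 to 35972605 on chromosome 16. Parp9 measured 54.00, 87.8 and 43.1 CPM in control 1 and 49.2, 47.7 and 33.4 CPM in hairpin 1, with overlap. The log2 fold changes were -0.50 ± 0.31 for Parp9, -0.96 ± 0.37 for Parp14 and -0.50 ± 0.39 for Dtx3l, and -0.16, -0.59 and 0.015 without control replicate 2.

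Among cell death and mitochondrial factors, Apol9b had the smallest p of the 32 genes. It measured 51.3, 51.8 and 32.1 CPM in control 1 and 16.97, 16.7 and 9.65 CPM in hairpin 1, a log2 fold change of -1.64 ± 0.32 with no overlap (edgeR adjusted p = 0.80, DESeq2 adjusted p = 0.0099). Of its 50-base windows 51.4% are found in Apol9a, so some of these reads may belong to that copy. Xaf1, an antagonist of the apoptosis inhibitor XIAP, measured 69.7, 86.4 and 36.2 CPM against 29.7, 31.1 and 14.3 CPM (log2 fold change -1.36 ± 0.42), also without overlap. Ifi27, a small mitochondrial protein, measured 447, 174 and 307 CPM against 303, 124 and 108 CPM, and was the 1 gene of the 32 with control replicate 2 as its lowest control. Zbp1, a sensor of Z-form nucleic acid that triggers necroptosis, was at 5.45 to 15.8 CPM in control 1 and 1.62 to 7.64 CPM in hairpin 1. Ifi44 measured 12.7, 18.4 and 3.34 CPM against 1.89, 5.56 and 2.70 CPM (-1.77 ± 0.69). Lgals3bp, a secreted glycoprotein, measured 373, 333 and 307 CPM against 209.5, 238 and 231 CPM, a log2 fold change of -0.58 ± 0.18. Its groups did not overlap, and the libraries within each differed little.

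The control 1 libraries differed widely among themselves in these genes. Control 1 replicate 2 was the highest control library for 28 of the 32 and replicate 3 the lowest for 29. The mean log2(CPM + 1) of the 32 genes, set against the control 1 mean, was -0.02, 0.67 and -0.65 in control 1 replicates 1 to 3 and -0.62, -0.64 and -1.25 in hairpin 1 replicates 1 to 3. Control 1 replicate 3 thus lay slightly below hairpin 1 replicates 1 and 2 on this measure. The median SD of log2(CPM + 1) over the 32 genes was 0.741, against 0.253 over all tested genes, and it ran from 0.465 without replicate 2 to 1.04 without replicate 1. Spread was largest for Mx2, Ifit3 and Cmpk2 (SD 1.27, 1.25 and 1.20) and smallest for Irf9, Trim25 and Lgals3bp (0.070, 0.11 and 0.14). The mean of the IFIT genes ran from -0.97 in control replicate 3 to 1.20 in replicate 2. In the cell death group control replicates 1 and 2 were close, at 0.22 and 0.20, with replicate 3 at -0.42, and all hairpin libraries were lower, at -1.04, -0.92 and -1.61.

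**Figure D2:**
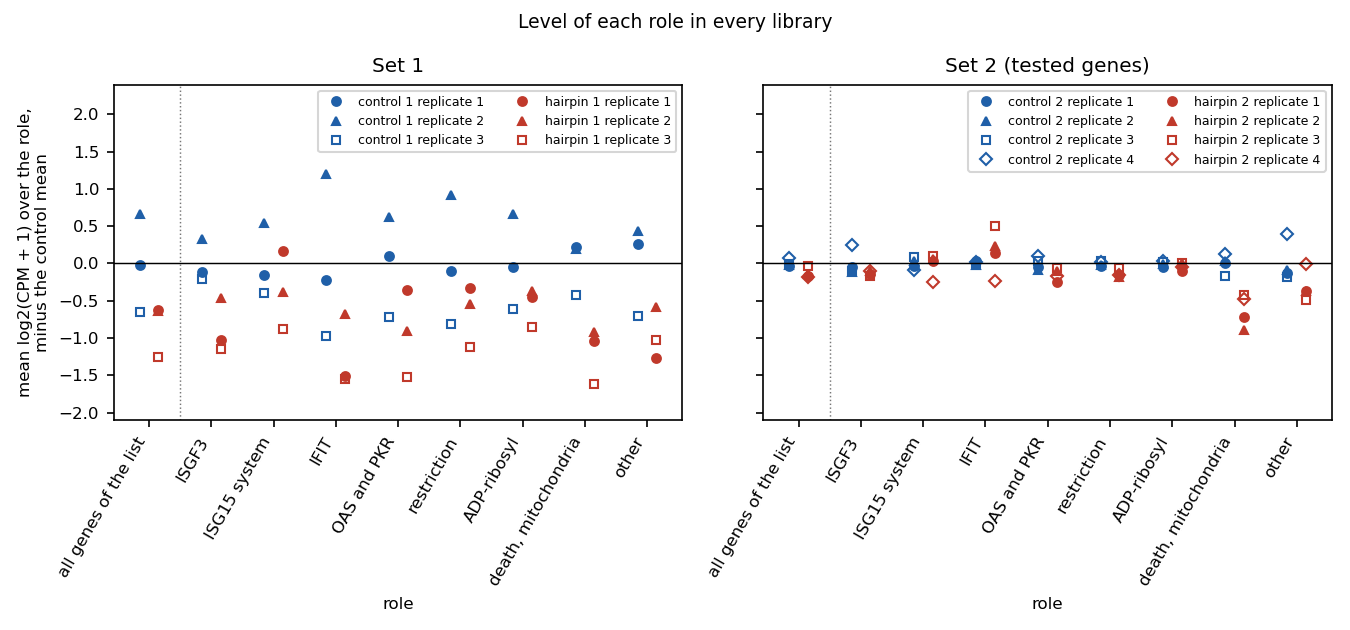
Mean log2(CPM + 1) over the genes of each role in every library, minus the mean of the control group of the same set. In set 1 (left) the control libraries spread from -0.65 to 0.67 over all 32 genes, and in set 2 (right) from -0.04 to 0.07 over the 22 tested genes.

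The hairpin 1 libraries also differed. Replicate 3 was below the control mean for all 32 genes, replicate 2 for 29 and replicate 1 for 24. Replicate 1 was above every control for Herc6, Oas3 and Oasl1, and yet it was the lowest of the 6 libraries for Irf9, Ifit2, Zbp1, Ifi44, Bst2 and Lgals3bp. This library also had the highest level of the interferon ligand Ifne, 8.60 CPM against at most 0.349 CPM in any other set 1 library, and of Ifnb1, 0.614 CPM against at most 0.354 CPM. The other 13 ligand genes were at most 0.337 CPM in any set 1 library. The share of counts in mitochondrially encoded mRNAs was 0.403 to 0.887% in control 1 and 0.560, 2.27 and 1.90% in hairpin 1 replicates 1 to 3. Summed leukocyte markers were 40.3, 10.2 and 25.8 CPM in control 1 and 55.0, 8.54 and 6.68 CPM in hairpin 1. The part of these measures in the change of the interferon-stimulated genes was not tested.

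In set 2 Ifi27 fell with hairpin 2, and it was the 1 gene of the 32 called in the main test, which did not pair libraries. Of the 32 genes, 22 had counts enough for the test, with 16 below 0 and 6 above and a median log2 fold change of -0.08, against 0.00 over all 14126 tested genes, of which 48.9% lay below 0. Ifi27, at 103434211 to 103440239 on chromosome 12, measured 4.63, 4.61, 2.25 and 3.65 CPM in control 2 replicates 1 to 4 and 0.580, 0.671, 1.51 and 1.41 CPM in hairpin 2. The groups did not overlap, and the log2 fold change was -1.997 ± 0.35 (edgeR adjusted p = 0.0085), with adjusted p up to 0.044 as each library was left out and 0.12 in the model of all 14 libraries, where it was not called. It was 1 called of 22, against 4.01% of all tested genes called lower, and 0 were called higher against 2.04%. At an unadjusted p under 0.05, 5 of 22 were lower and 2 higher, against 10.3% and 9.47% of all genes. In 4 of 22 genes (Stat2, Trim25, Oasl1 and Ifi27) every hairpin library was below every control, against 8.42% of all genes. The share called by the adjusted p was thus near the background. The shares lower at an unadjusted p under 0.05 and without overlap were above it, on 5 and 4 genes. Summed leukocyte markers were 14.6 to 20.9 CPM in control 2 and 11.9 to 15.9 CPM in hairpin 2, all 10 epithelial markers had log2 fold changes below 0 (median -0.25), and the part of either in these values was not tested.

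When replicate numbers were treated as pairs, 5 of 22 were called lower and 1 higher, against 10.1% and 10.2% of all tested genes (in set 1 the same block called none of the 32). The genes called lower were Ifi27, Lgals3bp, Trim25, Bst2 and Oasl1 (edgeR adjusted p = 0.0009, 0.00043, 0.022, 0.038 and 0.042), and Usp18 was called higher (0.0039). Lgals3bp measured 222, 229, 214 and 318 CPM in control 2 and 188, 188, 173 and 242 CPM in hairpin 2, a log2 fold change of -0.31 ± 0.14 without the block. Within each replicate number its hairpin library was lower. Trim25 measured 146, 148, 151 and 147 CPM against 137, 135, 133 and 126 CPM, a small difference of -0.16 ± 0.05 that did not overlap. Bst2 measured 13.2, 12.1, 11.1 and 16.4 CPM against 8.02, 8.76, 11.5 and 13.6 CPM, with overlap. Oasl1 measured 35.5, 34.9, 35.1 and 43.7 CPM against 31.3, 31.2, 33.5 and 33.2 CPM. Usp18 measured 90.3, 86.04, 91.5 and 78.1 CPM against 111, 105, 102 and 88.3 CPM, with 0.23 ± 0.08, on the other side of 0 from its value in set 1. Without both replicate 4 libraries Ifi27, Lgals3bp and Bst2 were called lower and Usp18 and Ifit1 higher by edgeR, with no call for any other of the 32. In that fit 1275 of all genes were called lower and 1121 higher, against 566 and 288 in the fit of all libraries without the block.

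The ISGF3 subunits had small differences in set 2. Stat2 measured 27.98, 27.7, 27.1 and 34.3 CPM in control 2 and 26.3, 25.1, 26.7 and 21.01 CPM in hairpin 2 (log2 fold change -0.24 ± 0.10, edgeR adjusted p = 0.23). Irf9 measured 17.04, 15.3, 16.3 and 21.3 CPM against 15.6, 17.5, 14.9 and 20.9 CPM (-0.02 ± 0.13), and the groups overlapped. Rtp4 measured 5.54, 6.51, 6.53 and 8.63 CPM against 5.17, 5.41, 7.14 and 11.6 CPM, and Parp9 34.2, 36.3, 39.8 and 36.1 CPM against 34.3, 36.1, 37.1 and 30.4 CPM. Both overlapped, at 0.07 and -0.09. Apart from Ifi27 the tested genes lay between -0.54 (Mx1) and 0.38 (Ifit1).

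**Figure D3:**
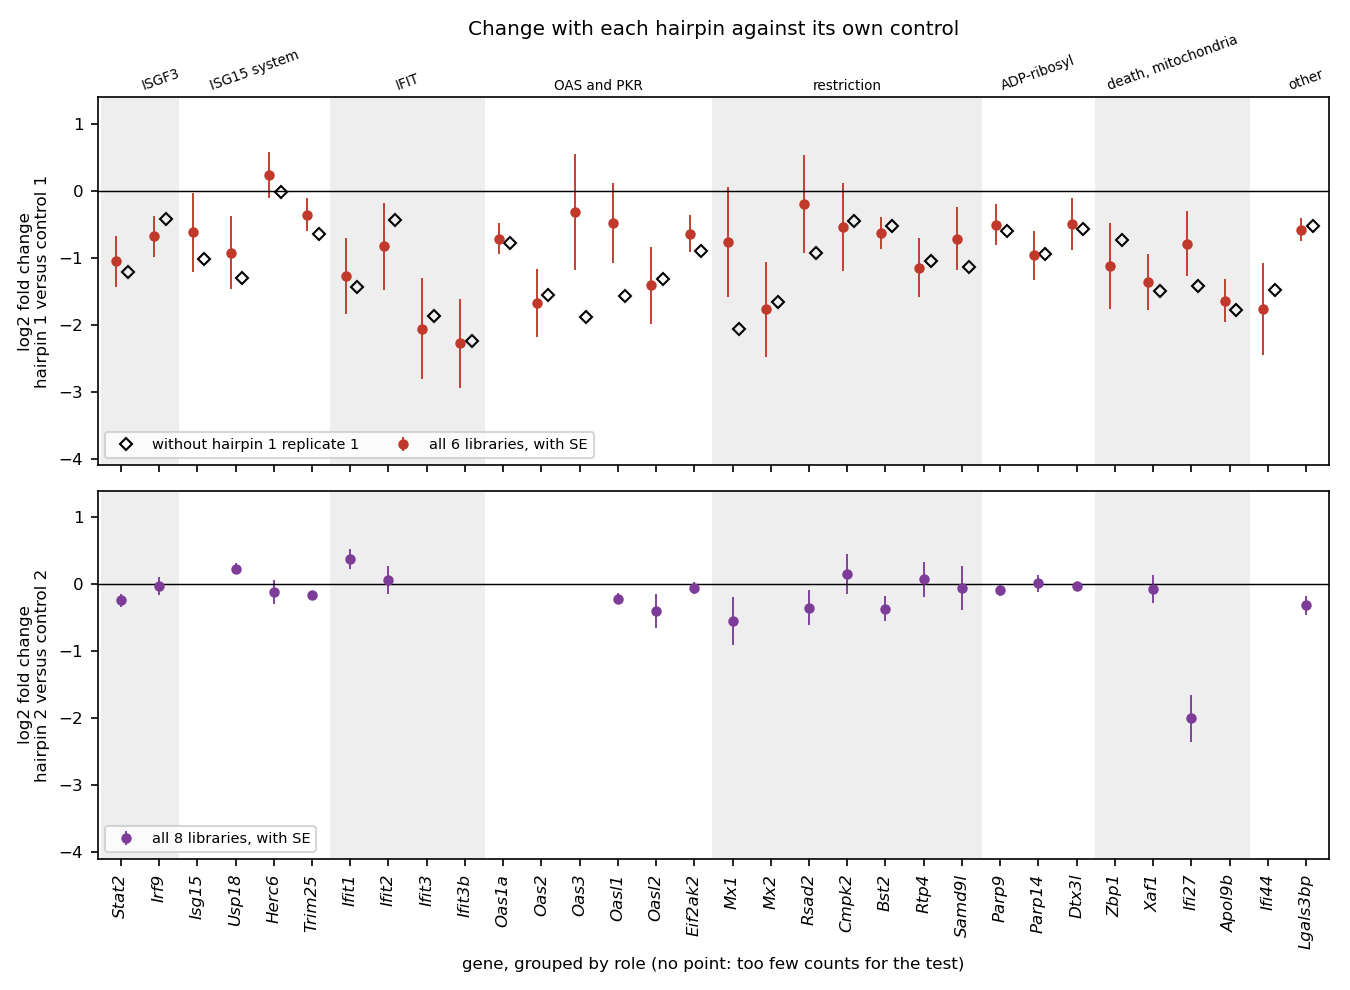
Log2 fold change with its SE for each gene in set 1 (top, with open diamonds for the fit without hairpin 1 replicate 1) and set 2 (bottom), grouped by role. In set 1 all genes except Herc6 lie below 0, and in set 2 Ifi27 at -1.997 is the lowest, with the others between -0.54 and 0.38.

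Counts of 10 of the genes were too low for the test in set 2. The raw counts given for them are not corrected for depth, and hairpin 2 replicates 3 and 4 were shallower than every control 2 library. Their total counts were 9272134 and 11956927, against 19837679 to 26284079 in control 2. Oas2 had 1 count over the 4 control 2 libraries and 1 over the 4 hairpin 2 libraries, Apol9b 3 and 3, Oas3 6 and 1, Ifit3b 8 and 4, and Ifi44 9 and 2. Oas1a had 10 and 5 counts, Ifit3 13 and 7, and Zbp1 18 and 13. Isg15 had 56 and 27 counts, at 0.591, 0.752, 0.382 and 0.722 CPM in control 2 and 0.357, 0.434, 0.433 and 0.332 CPM in hairpin 2. Mx2 had 14, 13, 7 and 24 counts in control 2 and 3, 2, 1 and 0 in hairpin 2, without overlap. With no filter on low counts Mx2 was called lower in set 2 (log2 fold change -2.77, edgeR adjusted p = 0.023). In that fit 560 of all genes were called lower and 246 higher.

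The effects of the hairpins were then compared directly, over the 22 genes tested in both sets. In the model of all 14 libraries, 19 of the 22 had a higher change with hairpin 2 than with hairpin 1, with a median difference of 0.61 on the log2 scale against -0.06 over all 15043 genes. None of the 22 was called by edgeR (adjusted p from 0.26 to 0.97) or by DESeq2, where edgeR called 0.0465% of all genes higher and 0.366% lower. At an unadjusted p under 0.05, 7 of 22 were higher (Eif2ak2, Ifit1, Parp14, Rtp4, Stat2, Usp18 and Xaf1) and 0 lower, against 4.73% and 7.29% of all genes. The difference was 0.80 ± 0.36 for Stat2 and, in the other direction, -1.20 ± 0.65 for Ifi27. Without hairpin 1 replicate 1, Oasl1 and Eif2ak2 were called (differences of 1.32 and 0.81, edgeR adjusted p = 0.0086 and 0.041). Calls rose over all genes too in that fit, to 349 higher and 610 lower, from 7 and 55 with all libraries. With all libraries a difference between the hairpins was not shown for any of the 22 genes, and hairpin, clone and set cannot be told apart.

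The levels in the control groups were far apart. For 27 of the 32 genes every control 1 library was above every control 2 library, and the ranges of Stat2, Herc6, Dtx3l and Lgals3bp overlapped. Usp18 alone was lower in every control 1 library, with 28.3 ± 18.6 CPM (SD, n = 3) against 86.5 ± 6.07 CPM (SD, n = 4). The median ratio of control 1 to control 2 means was 8.01. CPM were scaled within each set, and the share of all genes that lay apart likewise is not given here. The gap is therefore not shown to be particular to these genes. Ifi27 was at 309 ± 137 CPM in control 1 and 3.79 ± 1.12 CPM in control 2, Xaf1 at 64.1 ± 25.6 and 2.92 ± 0.708 CPM, and Isg15 at 27.8 ± 20.00 and 0.612 ± 0.168 CPM. Oas2 was at 51.6 ± 35.03 CPM in control 1, with 1 count in all of control 2. Transcripts of Oas2, Ifi44, Zbp1 and Oasl2 share none of their 50-base windows with other genes. The sets were deposited with different gene lists, the sources used here do not give the settings of the counting, and the levels of one set were not tested against the other.

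The spread among control libraries differed too. Over the 22 tested genes the median SD of log2(CPM + 1) in control 2 was 0.163, against 0.113 over all tested genes. It was 0.072, against 0.074 over all tested genes, without control 2 replicate 4. That library was the highest control for 11 of 22 genes and the lowest for 7. The mean of the 22 genes was -0.04, -0.03, -0.01 and 0.07 in control 2 replicates 1 to 4, and -0.17, -0.14, -0.04 and -0.18 in hairpin 2.

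**Figure D4:**
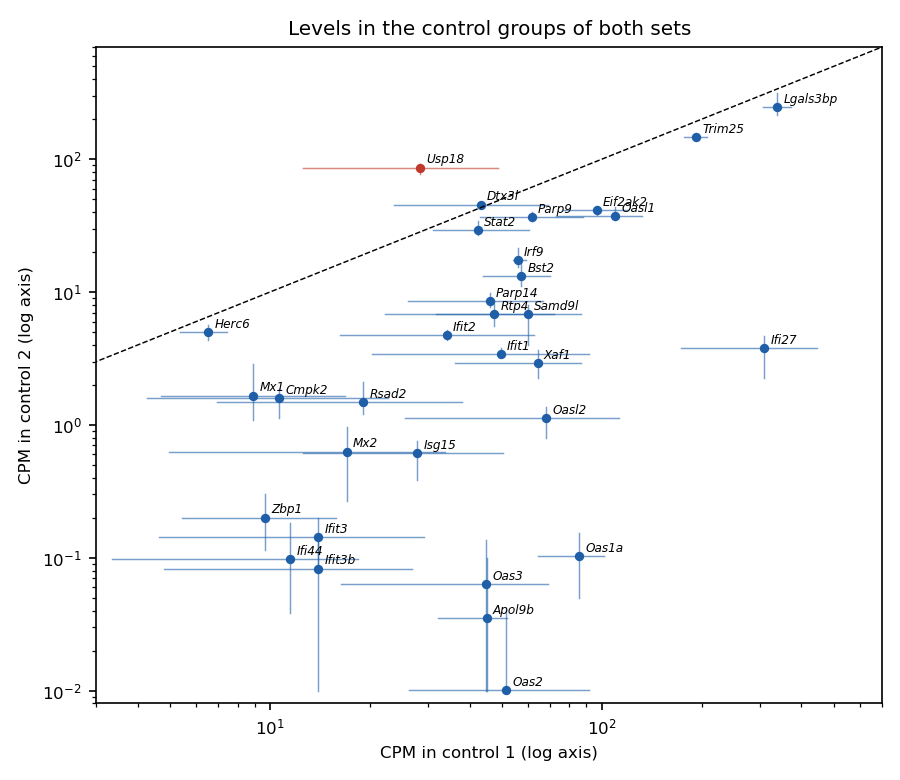
Mean CPM of each of the 32 genes in control 1 (horizontal, log axis) and control 2 (vertical, log axis), with lines from the lowest to the highest library and values under 0.01 CPM drawn at 0.01. Usp18 (red) lies above the dashed line of equal levels, and Oas2 and Apol9b lie farthest below it.

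Other arms of the interferon response were read from further lists in the same fits. In set 1 none of their genes was called by edgeR. Of 34 tested interferon-stimulated genes outside the 32, 29 were below 0 with a median of -0.40, and 5 were lower and 0 higher at an unadjusted p under 0.05, against 2.97% and 2.44% of all genes. Slfn2, a Schlafen family gene, measured 16.9, 12.2 and 24.1 CPM in control 1 and 3.03, 4.83 and 4.03 CPM in hairpin 1 (log2 fold change -2.16 ± 0.37, edgeR adjusted p = 0.80, DESeq2 adjusted p = 0.0003). Every hairpin library was far below every control. Irf7, the factor that amplifies interferon production, measured 153, 155 and 88.1 CPM against 67.5, 61.1 and 39.5 CPM (-1.23 ± 0.30), also without overlap.

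Guanylate-binding proteins and immunity-related GTPases, induced mainly by interferon gamma, had 9 of 10 tested genes below 0 in set 1 with a median of -0.79, though none reached an unadjusted p under 0.05. Antigen presentation genes had a median of -0.11 with 8 of 13 below 0, and -0.65 ± 0.27 for the peptide transporter subunit Tap1. Other interferon gamma targets went the other way, with 5 of 6 tested genes above 0 and a median of 0.23 (-0.04 without hairpin 1 replicate 1). Of receptors and Janus kinases, 7 of 9 were above 0 (median 0.20), and nucleic acid sensors and adaptors had a median of -0.03. Of the 16 tested NF-kB targets, whose median was 0.12, 4 were higher at an unadjusted p under 0.05 (Tnf, Cxcl1, Csf1 and Cxcl5), against 2.44% of all genes. None of the 15 interferon ligand genes had counts enough for the test. Without hairpin 1 replicate 1 the medians were -0.51 for the other interferon-stimulated genes, -0.58 for the GTPases, 0.05 for antigen presentation, -0.08 for receptors and kinases and -0.06 for NF-kB targets, so the last 3 changed sign.

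In set 2 some genes of the other lists were called. Aim2, a cytosolic DNA sensor, measured 29.98, 30.8, 29.9 and 37.2 CPM in control 2 and 11.8, 11.4, 11.8 and 15.9 CPM in hairpin 2, and fell by 1.34 on the log2 scale (edgeR adjusted p = 0.0002). Dhx58 (LGP2), an RNA helicase of the RIG-I family, measured 2.36, 1.80, 2.10 and 2.69 CPM against 0.758, 0.474, 0.865 and 0.415 CPM, and fell by 1.86 (0.0021). Neither gene had overlapping groups. Cd274 (PD-L1) fell by 1.37 (0.0033), and the NF-kB targets Cxcl2 and Birc3 fell by 1.605 and 0.75 (0.0004 and 0.0038). These 5 calls held as each library was left out. In the model of all 14 libraries Aim2, Dhx58 and Birc3 were called (edgeR adjusted p = 0.006, 0.021 and 0.021), and Cd274 and Cxcl2 were not (0.54 and 0.16). Ifih1 (MDA5), Tap1, H2-K1 and the receptor chain Ifngr1 were also called lower (log2 fold changes -0.61, -1.17, -0.31 and -0.42), and Jak1 and Gbp7 higher (0.26 and 1.67). Each of these 6 lost its call without 1 library or another, and in the model of all 14 libraries Tap1 alone of them was called (edgeR adjusted p = 0.047, against 0.61 to 1.00 for the others). Ifih1 lost it without control 2 replicate 2 or hairpin 2 replicate 1 or 2 (adjusted p up to 0.055), and Tap1 without replicate 1 of either group (up to 0.058). H2-K1 lost it without control 2 replicate 1 or 2 or hairpin 2 replicate 3 (up to 0.072), and Ifngr1 without hairpin 2 replicate 1, 2 or 3 (up to 0.078). Jak1 kept it without control 2 replicate 3 or hairpin 2 replicate 4 and Gbp7 without control 2 replicate 4, and both lost it without any other library (up to 0.0998 and 0.13). Sensors and adaptors thus had 3 of 14 tested genes called lower, antigen presentation genes 2 of 10, and interferon-stimulated genes outside the 32 had 1 of 27, which was Ifih1 again. Of all tested genes 4.01% were called lower and 2.04% higher, so the 1 of 27 was near the background. The medians of these lists were -0.10, -0.15 and -0.06.

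**Figure D5:**
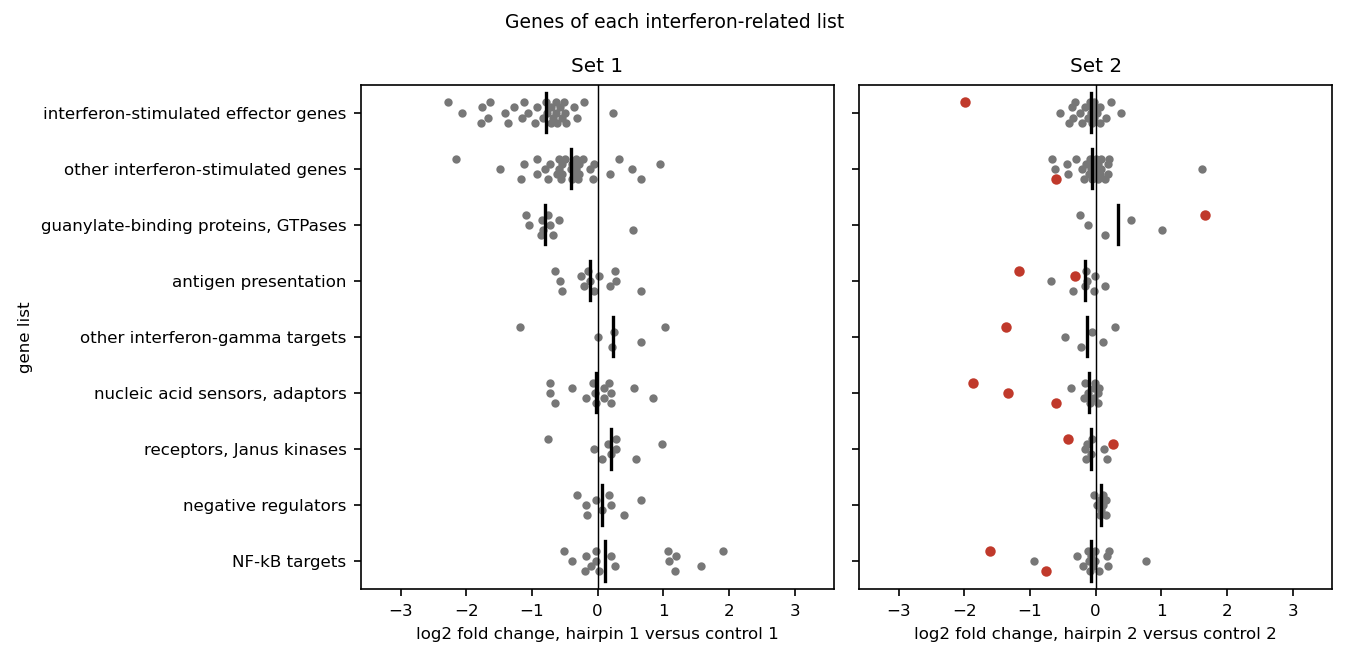
Log2 fold change of every tested gene of 9 interferon-related lists, with the list median as a black bar and genes past an edgeR adjusted p of 0.05 in red. In set 1 (left) the effector genes and the GTPases have the lowest medians, -0.78 and -0.79, with no gene called, and in set 2 (right) the medians of the effector genes and sensors are -0.08 and -0.10.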

How the data were processed

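Libraries of poly(A) RNA from 14 samples (TruSeq stranded, per the labels' protocols) were analysed. The deposited values are raw gene counts: whole numbers that the authors had not normalized. The submitters' processing notes name bcl2fastq 2.20, FastQC, STAR, featureCounts, DESeq2 and GRCm38. Strand, multi-mapping and annotation settings of the counting are not stated in those sources. Symbols and coordinates are from GENCODE M21 (GRCm38), which matched 55240 of 55421 and 17471 of 17490 listed genes. Groups come from the labels. No replicate pair agreed within sampling noise (lowest chi-square per gene 3.01).

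Each set was fitted across all genes by the quasi-likelihood test of edgeR 4.0.16 under R 4.3.3 (TMM, filterByExpr, Benjamini-Hochberg over all tested genes, threshold 0.05). A run on simulated counts checked the fold changes for bias, and the share of changed genes it recovered is not given here. DESeq2 (1.42.0), DESeq2 size factors, no filter, the replicate block, a model of all 14 libraries, chromosome medians and left-out libraries were alternatives. In set 2 same-numbered libraries had correlated deviations (0.249, 0.153, 0.247 and 0.598), all over the 0.1 taken as critical. Different numbers correlated at 0.108 to 0.216 among replicates 1 to 3, also over 0.1, so any pairing shows mainly in replicate 4. The block by number was therefore kept as an alternative, and the main test of set 2 was unpaired. Members and lists were chosen with earlier results of these data known. Values in every library were given for members past the test, the 8 largest changes per set with a mean of at least 5 CPM, Stat2, Irf9 and Isg15. Further members with such values (such as Herc6, Oas3, Mx1 and Rsad2) were chosen after their values were seen. From other lists up to 4 genes by p were named. Figures were drawn with Python 3.11.15 and matplotlib 3.10.9.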

Additional observations from a re-analysis of the deposited data

Results flagged for a closer look

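Of 44 groups of 4 libraries in set 2, 6 held a library far from the other 3 (by Dixon's criterion at 95%, which chance meets in about 1 in 20 groups). Of these 6, 5 were replicate 4 libraries. In control 2 replicate 4, Stat2 was at 34.3 CPM (27.1 to 28.0 in the other control libraries), Oasl1 at 43.7 CPM (34.9 to 35.5), Lgals3bp at 318 CPM (214 to 229) and Samd9l at 3.97 CPM (7.47 to 7.94). In hairpin 2 replicate 4, Samd9l was at 2.41 CPM (7.54 to 8.22). Samd9l was thus low in both replicate 4 libraries. Rsad2 was at 2.10 CPM in control 2 replicate 3 (1.20 to 1.35).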

How the results depend on the processing

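For hairpin 1, where 0 genes were called, DESeq2 called 1 gene of the list lower and 14 genes lower and 6 higher in all, and the model of all 14 libraries 82 and 105 in all. Leaving out each library gave list medians from -1.09 to -0.57, 0 list calls, 4 to 23 genes of the list at an unadjusted p under 0.05, and 0 to 1 genes called lower in all. With the replicate block in set 1, whose same-numbered libraries correlated at 0.231, -0.0169 and 0.269, no gene was called and the list median was -0.83. For hairpin 2, list calls lower were 2 by DESeq2, 2 with no filter, 0 in the model of all 14 libraries and, without both replicate 4 libraries, 3 with 2 higher. The replicate block gave 5 lower and 1 higher. Over all genes, where 566 were called lower and 288 higher, calls were 570 higher by DESeq2, 116 and 4 in the model of all 14 libraries, 1433 and 1447 with the block, and 1275 and 1121 without both replicate 4 libraries. With each library left out they were 365 to 845 lower and 83 to 564 higher, with 1 to 2 genes of the list lower and 0 to 1 higher. For the difference, with 55 genes called lower and 7 higher, calls were 287 lower and 111 higher by DESeq2, 13 higher with the block, and 23 to 610 lower and 4 to 349 higher with libraries left out, with 0 to 2 genes of the list. The median SD in control 2 ran from 0.072 to 0.193, and in control 1 from 0.465 to 1.04. Among the genes named by rule, directions turned for Isg15 in set 1 (-1.02 to 0.13 with libraries left out), Irf9 in set 2 (-0.12 to 0.087), Rtp4 in set 2 (-0.24 to 0.22, and -0.13 without both replicate 4 libraries) and the difference of Oasl1 (-0.075 to 1.32). Over all members, 7 of 32 in set 1 changed direction with some library left out. Without control 1 replicate 2 these were Isg15, Oas3, Mx1, Rsad2, Cmpk2 and Dtx3l (0.015 to 0.77), and without hairpin 1 replicate 1 Herc6 (-0.022). Oas3 also turned without hairpin 1 replicate 2 or 3 (0.043 and 0.19), and Rsad2 without hairpin 1 replicate 3 (0.21). In set 2 the directions of 9 of 22 turned (Cmpk2, Dtx3l, Herc6, Ifit2, Irf9, Parp14, Rtp4, Samd9l and Xaf1), none of them called with all libraries. The causes were not tested.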
